A study of Homo sapiens with 7 samples.

Results

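Aminoacyl-tRNA synthetases are the enzymes that join each amino acid to the tRNAs that carry it to the ribosome. Their genes were taken by symbol alone, as 1 letter for the amino acid followed by ARS1 or ARS2, together with EPRS1, FARSA and FARSB. This gave 37 of the 21305 genes of the table, namely 20 for cytosolic enzymes and 17 for mitochondrial enzymes. The naming rule used no measured value, but the family was chosen with earlier results of these data known. RNA had been sequenced from 501Mel, a human melanoma line of the differentiated, melanocytic kind, carrying a lentiviral short hairpin RNA that doxycycline switches on. All libraries, the controls included, came from doxycycline-induced cells. The control hairpin shlacZ is directed at a bacterial gene that these cells lack (n = 3), and the hairpins sh4 (n = 2) and sh8 (n = 2) are directed at the long non-coding RNA GRASLND. A single cell line was used, how many lines were made per hairpin is not given, and the labels number the libraries without saying whether they were separate cultures, so the p-values below measure the spread between these libraries, which may be technical.

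Cells keep separate sets of synthetases for the cytosol and for the mitochondrion, nearly all of them encoded in the nucleus by different genes. The exceptions are GARS1 and KARS1, whose single genes serve both compartments, and QARS1, which has no mitochondrial partner because mitochondria first load glutamate with EARS2 and then convert it on the tRNA. Part of the cytosolic enzymes, 8 genes here with EPRS1, IARS1, LARS1, MARS1, QARS1, RARS1 and KARS1 among them, are held in the multisynthetase complex, while the other 12 cytosolic genes encode enzymes outside it or, for FARSA and FARSB, subunits of 1 enzyme. The synthetases also fall into class I and class II by the fold of the catalytic domain, with 19 and 18 of the 37 genes. The class was assigned by the first letter of the symbol, which places EPRS1 in class I by its glutamyl part alone. Many genes for cytosolic synthetases are known targets of ATF4, the transcription factor of the amino acid response.

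Reads assigned to genes, which are fewer than the reads sequenced, ranged from 13337317 to 22855232 per library. Each synthetase gene had at least 63 reads in each library. The first shlacZ library stood apart. Its root mean square log2 difference from the other shlacZ libraries was 0.63 and 0.64 over all genes tested, against 0.47 between those, and it was the lowest of the 3 for 31 of the 37 synthetase genes. The target GRASLND was at 309, 329.9 and 289.7 in the shlacZ libraries, 175 and 131 under sh4, and 227 and 163 under sh8, with all 4 knockdown libraries under the controls. Its pooled log2 fold change was -0.85 (SE 0.19, adjusted p 0.0402), and an exact two-sided permutation test over the libraries (35 arrangements) gave a p of 0.0571, where 0.0286 is the smallest possible. The pooled adjusted p of GRASLND was over 0.05 in 6 of the 7 fits that left out 1 library. In limma its log2 fold change was -1.02 (SE 0.21, adjusted p 0.00662) under sh4. Under sh8 it was -0.68 (SE 0.21, adjusted p 0.110), so the target itself did not pass there. Of the 7 melanocytic markers all were measured in every library, and PTPRC, CD3E, PECAM1, KRT5 and KRT14, which mark leukocytes, endothelium and keratinocytes, were not analysed here. Values below are normalized counts, that is, reads divided by the authors' size factor of the library. Fold changes are differences of log2(normalized count + 1), and a gene was called at an adjusted p under 0.05 in limma over 15420 genes with a mean of at least 10, a minimum that all 37 synthetase genes passed.

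In the control cells, cytosolic synthetase transcripts were mostly far more abundant than mitochondrial ones. Per kb of the canonical transcript, the median shlacZ level was 860.2 normalized counts for the 20 cytosolic genes (range 252 to 2043) and 208 for the 17 mitochondrial genes (range 50.02 to 1339.7). TARS1, the threonyl enzyme, was highest at 2043 ± 278 per kb (SD, n = 3). GARS1, for glycine, followed at 1987 ± 139.8 per kb and did not differ from TARS1 beyond the spread, and NARS1, for asparagine, came after these at 1573 ± 179 per kb. At the other end lay MARS2, for methionine, at 104 ± 23.7 per kb. YARS2, for tyrosine, lay within that spread at 97.4 ± 13.7 per kb. PARS2, for proline, was lowest at 50.02 ± 9.46 per kb. Among the 12 highest genes only IARS2, for isoleucine, at 1339.7 ± 82.4 per kb, and NARS2, for asparagine, at 987 ± 76.2 per kb were mitochondrial, and among the 12 lowest only FARSB was cytosolic.

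**Figure D1:**
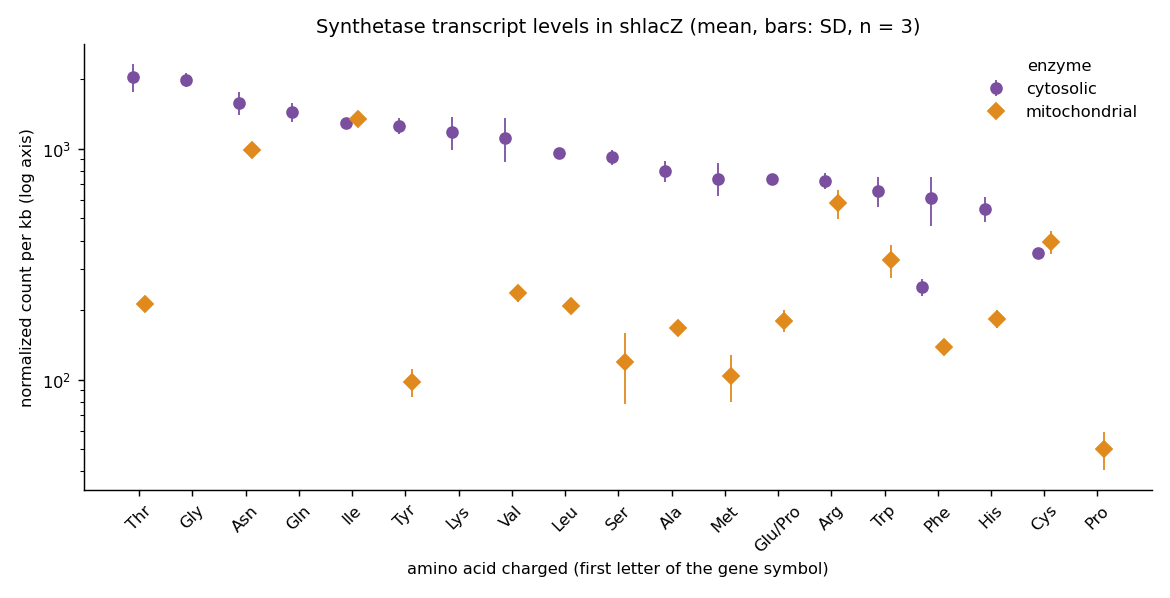
Normalized count per kb of canonical transcript (log axis) of 35 synthetase genes in the 3 shlacZ libraries, by amino acid; circles are cytosolic and diamonds mitochondrial enzymes, bars the SD. Over all 20 cytosolic genes the median is 860.2 and over all 17 mitochondrial genes 208, and the levels of the isoleucine enzymes nearly coincide.

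Of 18 pairs of a cytosolic and a mitochondrial gene for the same amino acid, 15 had the cytosolic transcript higher per kb in shlacZ, with a median difference of 2.07 on the log2 scale. Some pairs share a gene, since FARS2 is paired with both FARSA and FARSB, and EPRS1 with both EARS2 and PARS2. The difference was widest for EPRS1, the bifunctional glutamyl-prolyl enzyme, over PARS2 (14.6-fold). YARS1 over YARS2 came next at 12.9-fold. In 3 pairs the mitochondrial transcript was slightly higher, among them CARS1 with CARS2 and IARS1 with IARS2. Their log2 differences were -0.16 for CARS1 and CARS2 and -0.05 for IARS1 and IARS2, each smaller in size than its SD over the 3 shlacZ libraries of 0.19 and 0.06.

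The comparison of each hairpin with shlacZ asked how these transcripts differ when GRASLND is targeted. Under sh4, 17 of the 37 synthetase genes fell and 1 rose against shlacZ. Over all genes tested, 11.9% fell and 10.5% rose (22.5% in either direction), and among the genes at least as abundant as the least abundant synthetase 15.8% fell. The 17 that fell were 11 of the 20 cytosolic and 6 of the 17 mitochondrial genes. Their sizes were modest, since with the additional requirement of the study, an absolute log2 fold change over 1, only NARS2 was called, against 8.16% of all genes. The median log2 fold change under sh4 was -0.51 for cytosolic and -0.23 for mitochondrial genes, beside -0.01 for all genes tested. Summed over the 20 cytosolic genes, the normalized counts were 58191 ± 5359 in shlacZ (SD, n = 3), 40812 ± 5019.8 under sh4 (n = 2, 29.9% lower) and 50773 ± 1432 under sh8 (n = 2, 12.7% lower). The sums of the 17 mitochondrial genes were 22.0% lower under sh4 and 13.8% lower under sh8. Less RNA of these genes per cell and fewer cells of a kind that express them cannot be told apart in such bulk libraries.

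The call count depended on single libraries. It was 5 without the first sh4 library (10.3% of all genes), 12 without the second sh4 library (9.13%), 10 when shlacZ library 2 or shlacZ library 3 was dropped (14.6% and 14.8%), and 21 without the first shlacZ library (31.6%). NARS2, EARS2, LARS1, IARS1 and YARS1 were called in each of the 7 fits that left out 1 library. In the same libraries 6 of the 7 melanocytic markers (MITF, SOX10, PMEL, MLANA, DCT and TYRP1, not TYR) fell under sh4, and their summed normalized count ranged from 135575 to 146343 in shlacZ, from 51868 to 59737 under sh4 and from 101544 to 104484 under sh8. The part of this shift in the synthetase values was not tested.

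**Figure D2:**
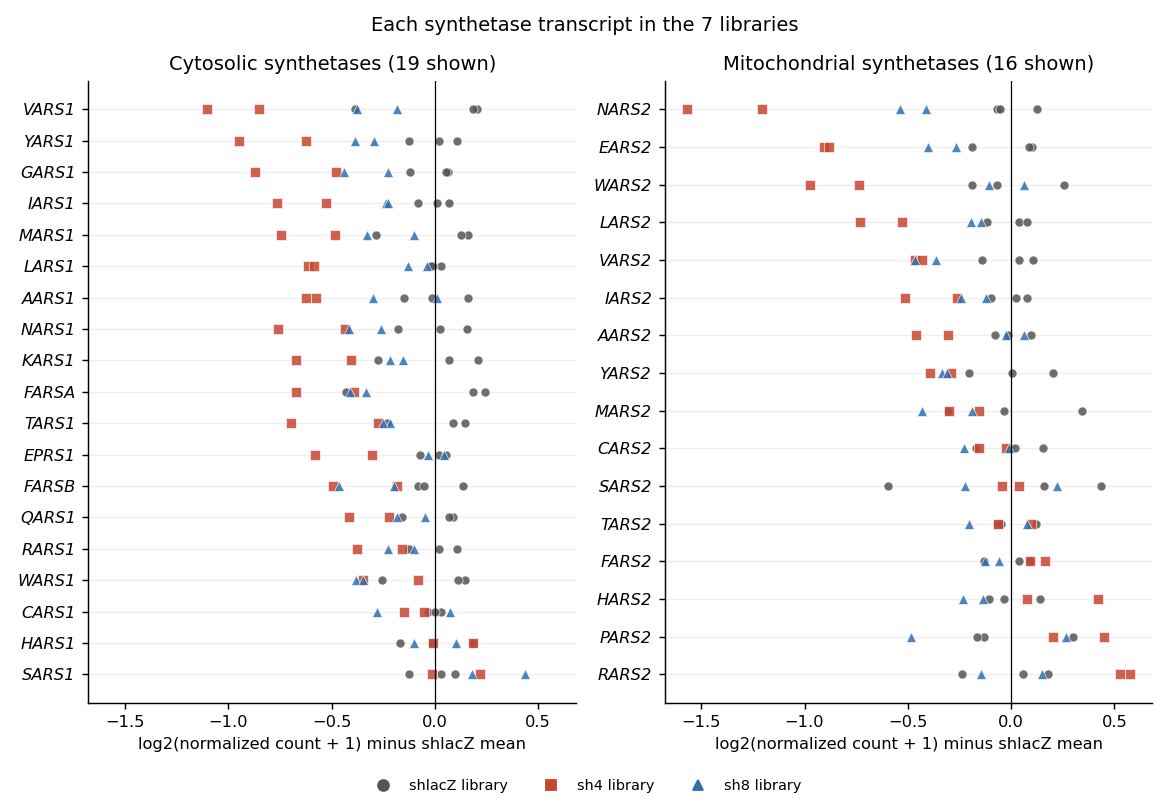
The values of 35 synthetase genes in the 7 libraries, as log2(normalized count + 1) minus the mean of the 3 shlacZ libraries, ordered by the change under sh4. Both sh4 libraries lie under all shlacZ libraries for the 17 genes that fell, and for RARS2 both lie above.

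Both sh4 libraries lay under all shlacZ libraries for 24 of the 37 genes, as they did for 25.6% of all genes tested. This held for all 8 enzymes of the multisynthetase complex, of which 5 fell (median log2 fold change -0.49, range -0.64 to -0.27). LARS1, the leucyl enzyme (ENSG00000133706, chr5:146110566-146182696, minus strand of hg38), was at 4634, 4519 and 4476 in the shlacZ libraries, 2965 and 3023 under sh4, and 4430.2 and 4154 under sh8. The control and sh4 libraries were far apart and each was tight, with means of 4543 ± 81.8 (SD, n = 3) and 2994 ± 41.1 (SD, n = 2), a log2 fold change of -0.60 (SE 0.10, adjusted p 0.00311) in limma. IARS1, for isoleucine, was at 5477, 6092 and 5850.3 in the shlacZ libraries, 3415 and 4029 under sh4, and 4928 and 4948 under sh8. The sh4 libraries were lowest and the sh8 libraries lay between them and the controls, with a log2 fold change of -0.64 (SE 0.12, adjusted p 0.00396) under sh4. MARS1, for methionine, was at 1685, 2299 and 2243 in the shlacZ libraries, 1226 and 1470.3 under sh4, and 1636 and 1917 under sh8. Its first control library was close to the sh8 libraries, and its log2 fold change under sh4 was -0.61 (SE 0.16, adjusted p 0.0231). MARS1 shares its locus with DDIT3 on the opposite strand, and whether the counting used strand is not given in the sources used here. KARS1, for lysine in both compartments, was at 1923, 2683 and 2434 in the shlacZ libraries, 1457 and 1755 under sh4, and 1997 and 2091 under sh8. Here too the sh4 libraries were below the rest, at -0.54 (SE 0.16, adjusted p 0.0327). EPRS1, whose 2 catalytic parts load glutamate and proline, also fell, at -0.44 (SE 0.12, adjusted p 0.0256). QARS1, for glutamine, had 3146, 3735 and 3679 in the shlacZ libraries, 2630.3 and 3008 under sh4, and 3094 and 3397 under sh8. The sh4 libraries were the lowest, but the log2 fold change of -0.32 (SE 0.13, adjusted p 0.0945) did not pass, nor did that of RARS1 (-0.27).

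Of the 12 cytosolic genes outside the complex, 6 fell under sh4 (median -0.51, range -0.98 to 0.10). VARS1, the valyl enzyme, had the deepest cytosolic change. It was at 3444, 5194 and 5126 in the shlacZ libraries, 2096 and 2499 under sh4, and 3476 and 3974 under sh8. The first control library was level with the first sh8 library, both sh4 libraries were far lower, and the log2 fold change under sh4 was -0.98 (SE 0.18, adjusted p 0.00476). YARS1, for tyrosine (ENSG00000134684, chr1:32775237-32818031, minus strand), was at 2813, 3303 and 3115 in the shlacZ libraries, 1589 and 1994 under sh4, and 2345 and 2499 under sh8. The 3 groups did not overlap, with sh8 between the others, and the log2 fold change was -0.79 (SE 0.13, adjusted p 0.00290) under sh4. GARS1, for glycine in both compartments, was at 4448, 5053 and 5023 in the shlacZ libraries, 2646 and 3467 under sh4, and 3567 and 4131 under sh8. Again the groups were apart in the same order, with -0.67 (SE 0.14, adjusted p 0.00839) under sh4.

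AARS1, for alanine, was at 2472, 2717 and 3060.4 in the shlacZ libraries, 1776 and 1840.5 under sh4, and 2222 and 2762 under sh8. Its sh8 libraries fell on both sides of the lowest control, while sh4 was below all others at -0.60 (SE 0.14, adjusted p 0.0120). NARS1, for asparagine, was at 3827, 4813 and 4396 in the shlacZ libraries, 2558 and 3194 under sh4, and 3609 and 3239 under sh8. It was lower in both knockdown groups, and passed the test under sh4 at -0.60 (SE 0.14, adjusted p 0.0145). TARS1, for threonine, was at 4610.3, 6002 and 5763 in the shlacZ libraries, 3342 and 4474 under sh4, and 4667 and 4554 under sh8. The first sh4 library alone was far below the other knockdown libraries, and the call under sh4 was marginal at -0.49 (SE 0.16, adjusted p 0.0496). It was lost in 5 of the 7 fits without 1 library and under 6 of 10 other settings. FARSA, a subunit of the phenylalanyl enzyme, was at 801, 1279.9 and 1229 in the shlacZ libraries, 676 and 824 under sh4, and 858 and 813 under sh8. Its first control library lay among the knockdown libraries, and its log2 fold change under sh4 of -0.53 (SE 0.20, adjusted p 0.0826) did not pass, whereas without that control library it did. WARS1, the tryptophanyl enzyme and an interferon-induced gene, was at 1436, 1895 and 1852 in the shlacZ libraries, 1347 and 1618 under sh4, and 1315 and 1349 under sh8. Both sh8 libraries were below the controls, the second sh4 library was not, and it passed under neither hairpin, with an sh4 change of -0.22 (adjusted p 0.337) and an sh8 change of -0.36 (adjusted p 0.235). FARSB (-0.34), CARS1 (-0.10), HARS1 (0.09) and SARS1 (0.10) did not pass under sh4. SARS1, for serine and singled out after its values were seen, was at 1613, 1792 and 1879.9 in the shlacZ libraries, 1744 and 2048 under sh4, and 1990.4 and 2379.9 under sh8. Of the 20 cytosolic genes it alone had both sh8 libraries above all controls.

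**Figure D3:**
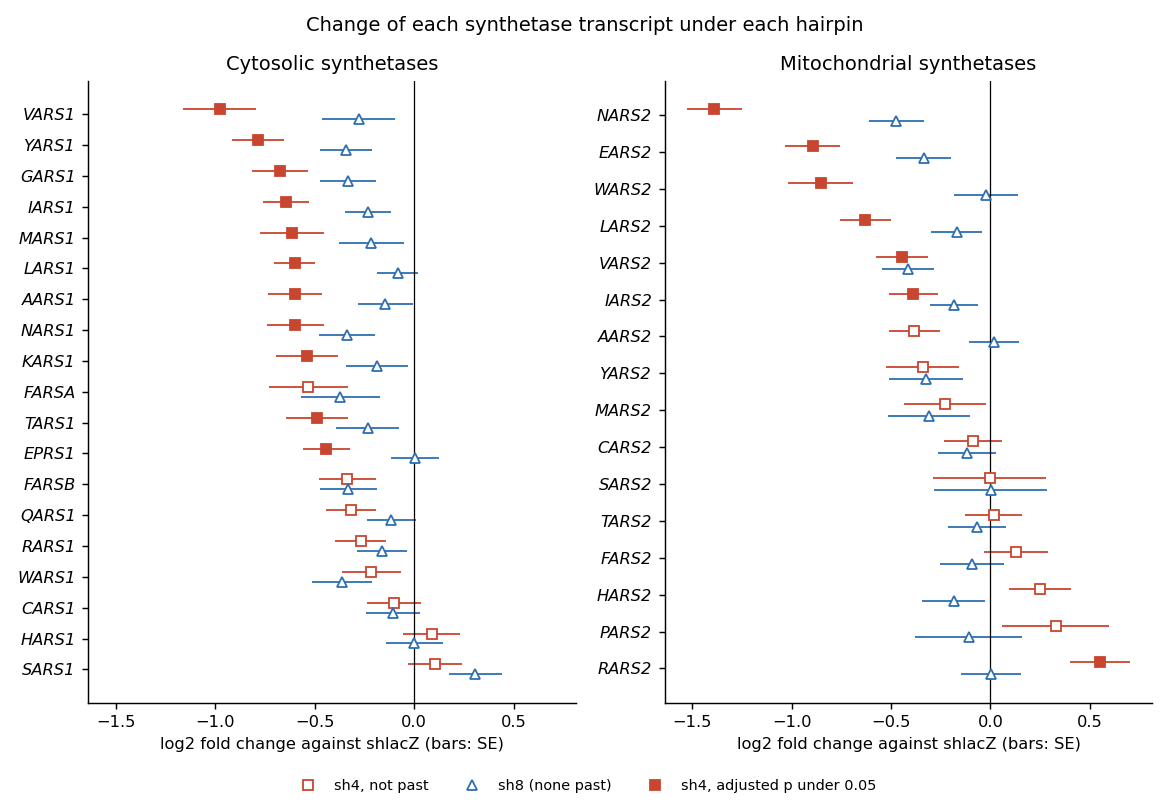
Log2 fold change against shlacZ of 35 synthetase genes under sh4 (squares) and sh8 (triangles), with SE bars; filled symbols have an adjusted p under 0.05 in limma. All filled symbols belong to sh4, 17 to the left of 0 and RARS2 to the right.

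The mitochondrial genes were less uniform. Under sh4, 6 of 17 fell, 1 rose and 10 did not pass, with a range from -1.39 to 0.55. NARS2, the asparaginyl enzyme (ENSG00000137513, chr11:78435620-78575194, minus strand), had the largest change of all 37 genes in each of the 4 comparisons. Its normalized count was 2699.9, 2357 and 2382 in the shlacZ libraries, 1071 and 833 under sh4, and 1861 and 1705 under sh8. The 3 groups were fully apart, and the mean went from 2479 ± 191 (SD, n = 3) to 952 ± 168 (SD, n = 2), 61.6% lower, a log2 fold change of -1.39 (SE 0.14, adjusted p 2.06e-04). EARS2, for glutamate (ENSG00000103356, chr16:23520754-23557731, minus strand), was at 816, 999 and 987 in the shlacZ libraries, 497 and 504 under sh4, and 774 and 703 under sh8. The sh4 libraries nearly coincided, and the log2 fold change was -0.89 (SE 0.14, adjusted p 0.00188). EARS2 overlaps GGA2 on the same strand, so part of its reads is uncertain. WARS2, for tryptophan (ENSG00000116874, chr1:119031216-119140654, minus strand), was at 798, 1087 and 866 in the shlacZ libraries, 463 and 545 under sh4, and 949 and 844 under sh8. Here the sh8 libraries lay inside the control range and sh4 alone was low, at -0.85 (SE 0.16, adjusted p 0.00498). WARS2 holds the processed copies RBMX2P3 and RPS3AP12 on its own strand, which could take or lend reads. LARS2, for leucine, was at 913, 1020.2 and 1047 in the shlacZ libraries, 597 and 688 under sh4, and 896 and 867 under sh8. The sh4 libraries were apart from all others, at -0.63 (SE 0.13, adjusted p 0.00751).

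VARS2, for valine, was at 766, 907 and 866 in the shlacZ libraries, 612 and 626 under sh4, and 612 and 656 under sh8. Both hairpins left it at a similar level under the controls, and only sh4 passed, at -0.45 (SE 0.13, adjusted p 0.0346). IARS2 fell as well, near the threshold, at -0.39 (SE 0.12, adjusted p 0.0455). In the opposite direction, RARS2, for arginine (ENSG00000146282, chr6:87513459-87590028, minus strand), given in full after its values were seen, was at 1462, 1343 and 1095 in the shlacZ libraries, 1862 and 1926 under sh4, and 1431 and 1166 under sh8. Both sh4 libraries were above all others, and the log2 fold change was 0.55 (SE 0.15, adjusted p 0.0264). That call was lost when shlacZ library 2, shlacZ library 3 or either sh4 library was left out. Of the 3 least abundant transcripts per kb, MARS2 was at 249, 301 and 391 in the shlacZ libraries, 249.6 and 276 under sh4, and 228 and 270.3 under sh8. PARS2 was at 106, 104 and 144 in the shlacZ libraries, 134 and 159.7 under sh4, and 83.0 and 140.2 under sh8. In both the sh4 and the control libraries overlapped. YARS2 was at 178, 236 and 205 in the shlacZ libraries, 156 and 167 under sh4, and 162 and 165 under sh8. It was lower in all 4 knockdown libraries than in the controls, yet the 3 log2 fold changes under sh4 of -0.23, 0.33 and -0.34 did not pass. AARS2 (-0.38), CARS2, FARS2, HARS2, SARS2 and TARS2 did not pass either, and the last 5 lay between -0.09 and 0.25. HARS2 shares its start region with HARS1 on the opposite strand, so both are uncertain if strand was not used. In all, 16 synthetase genes overlap another measured gene, and VARS2, YARS2, HARS1 and HARS2 are among those that do so on their own strand.

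**Figure D4:**
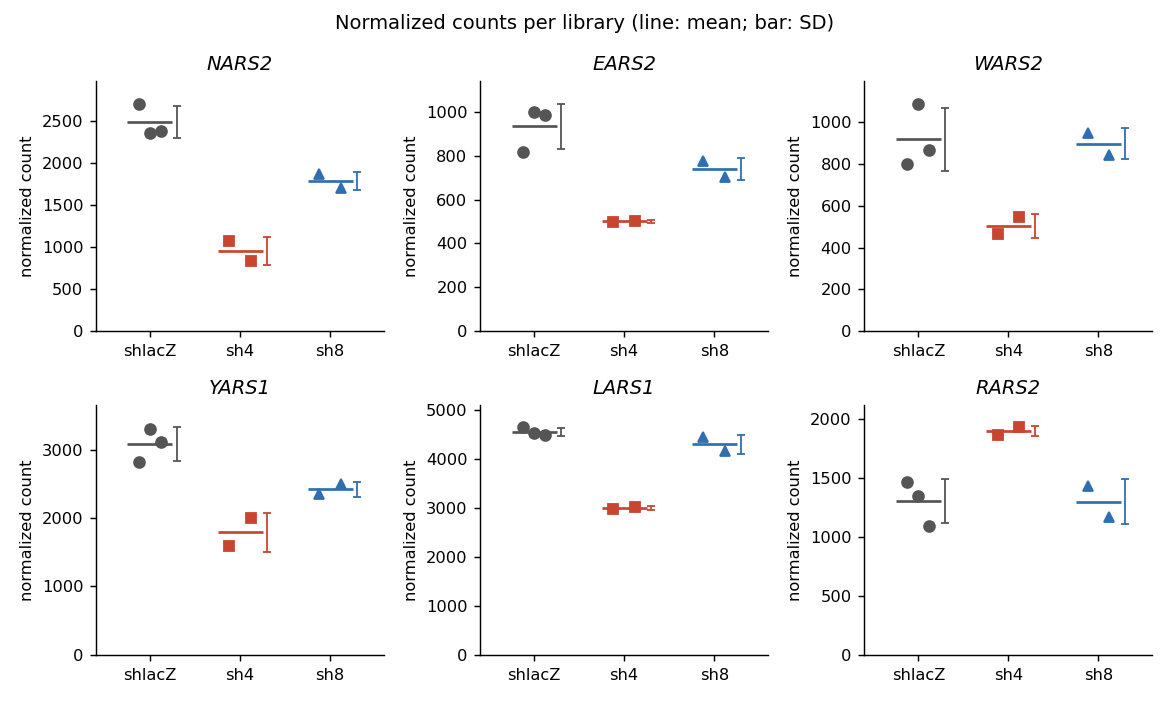
Normalized counts in every library of 6 synthetase genes, with group means (lines) and SD (bars), on axes that start at 0. NARS2, EARS2, WARS2, YARS1 and LARS1 have both sh4 libraries under the controls and RARS2 has them above, while sh8 lies between or with the controls.

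By catalytic class under sh4, 11 of 19 class I genes fell and 1 rose, and 6 of 18 class II genes fell, with medians of -0.44 and -0.31. Within the cytosolic set the counts were 6 of 10 and 5 of 10. Leaving GARS1 and KARS1, which serve both compartments, out of the cytosolic set gave 9 of 18 and a median of -0.46.

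Under sh8, 0 of the 37 genes passed in limma, against 2.92% of all genes tested. At an unadjusted p under 0.05 there were 10, of which 9 were lower, where 18.5% of all genes passed and 9.69% were lower. Limma-voom on the recovered reads also called 0. The medians were -0.20 for cytosolic and -0.17 for mitochondrial genes, beside -0.01 for all genes. Of the 37 estimates, 31 were below 0. Both sh8 libraries lay under all controls for 16 of the 37 genes, compared with 17.9% of all genes tested. The 3 estimates farthest from 0 were NARS2 at -0.47 (SE 0.14, adjusted p 0.101), VARS2 at -0.41 (SE 0.13, adjusted p 0.126) and FARSA at -0.37 (SE 0.20, adjusted p 0.363). Without the first shlacZ library, FARSA, VARS1, VARS2 and WARS1 passed under sh8 (10.4% of all genes passed in that fit, a similar share).

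Both hairpins were also pooled, as in the study, which used DESeq2 and gene set enrichment. Its enrichment lists name EPRS1, FARSA, IARS1, KARS1, RARS1, TARS1 and WARS1 as downregulated, a different measure from a call per gene. With the hairpins pooled here, 0 of the 37 genes passed in limma, against 4.61% of all genes. At an unadjusted p under 0.05 there were 17, each of them lower, where 24.1% of all genes passed and 12.9% were lower. Limma-voom called 0. The 2-level limma fit puts what separates sh4 from sh8 into its error. When 3 groups were fitted and the contrasts of sh4 and sh8 averaged, 10 synthetase genes were called, each of them lower (EARS2, GARS1, IARS1, LARS1, LARS2, NARS1, NARS2, VARS1, VARS2 and YARS1), where 8.77% of all genes were lower by that fit. All 4 knockdown libraries lay under all 3 controls for 13 of the 37 genes, compared with 11.0% of all genes. The largest pooled changes were those of NARS2 at -0.93 (SE 0.25, adjusted p 0.0646), VARS1 at -0.63 (SE 0.23, adjusted p 0.137) and EARS2 at -0.61 (SE 0.18, adjusted p 0.0812). The medians were -0.35 for cytosolic and -0.26 for mitochondrial genes, beside -0.01 for all genes. Without the first sh8 library NARS2 and EARS2 passed, as did 7.72% of all genes. Without the first shlacZ library FARSA passed, as did 4.54% of all genes. Neither share of the 37 genes was above that of all genes.

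A call under 1 hairpin and not the other is no test of their difference, so sh4 was also compared with sh8 directly. By this test 3 of the 37 genes were lower under sh4 and 0 were higher in both limma and limma-voom, against 3.33% of all genes that were lower. They were NARS2 at -0.91 (SE 0.15, adjusted p 0.00771), WARS2 at -0.83 (SE 0.18, adjusted p 0.0213) and LARS1 at -0.52 (SE 0.11, adjusted p 0.0235). All sh4 libraries lay under all sh8 libraries for these genes, as the plot of the 6 selected genes shows. VARS1 had a larger estimate than LARS1 but more spread, and did not pass at -0.70 (SE 0.20, adjusted p 0.0658). RARS2 did not pass at 0.55 (SE 0.17, adjusted p 0.0759). The medians were -0.26 for cytosolic and -0.0046 for mitochondrial genes, beside -0.01 for all genes. Without the first shlacZ library 10 synthetase genes were lower under sh4 and RARS2 was higher (12.9% of all genes in either direction). Without the second sh4 or the first sh8 library the count was 0 (0.935% and 1.58% of all genes).

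For the pairs that charge the same amino acid, the balance of cytosolic over mitochondrial transcript was examined in every library. The log2 ratio per kb was below that of all shlacZ libraries in both sh4 libraries for 11 of 18 pairs, above for 3 and overlapping for 4. Under sh8 the corresponding counts were 1, 3 and 14. No test was made of these ratios and no share over other gene pairs was computed, so the counts are a description of these libraries alone. The ratio of NARS1 to NARS2 was 0.37, 0.89 and 0.75 in the shlacZ libraries, 1.12 and 1.80 under sh4, and 0.82 and 0.79 under sh8. Both transcripts fell under sh4, the mitochondrial one more, so the ratio was highest there. The ratio of RARS1 to RARS2 was 0.03, 0.38 and 0.59 in the shlacZ libraries, -0.57 and -0.40 under sh4, and 0.08 and 0.25 under sh8. It was below 0 only in the sh4 libraries, where the mitochondrial transcript was the more abundant of the pair. The pairs of WARS1 with WARS2 and of EPRS1 with EARS2 also had higher ratios in both sh4 libraries than in any control, with mean differences of 0.64 and 0.45 on the log2 scale. For WARS1 with WARS2, the mean under sh8 differed from shlacZ by -0.34.

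Promoter sequence is shown for the synthetase genes that carry the core of the amino acid response element, since many cytosolic genes fell together under sh4. RefSeq promoters (GRCh38.p14, 250 bases before to 50 after each start) matched 30 of the 37 genes, and AARS2, LARS1, VARS1, VARS2 and YARS1 were among those with no entry. Of 9 motifs searched on both strands, TGATGNAA, a core that ATF4 dimers are known to bind, was found in 8 of 30 synthetase genes and in 4.46% of the 27305 genes with a promoter. In 6 of the 8 it read TTGCATCA on either strand, a form that is the reverse complement of TGATGCAA, lies within the first motif and is present in 1.08% of genes. The 30 bases around each match are given on the strand of the gene, with the motif in capitals.
AARS1 chr16:70289675-70289704, minus strand: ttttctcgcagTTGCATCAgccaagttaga
CARS1 chr11:3057407-3057436, minus strand: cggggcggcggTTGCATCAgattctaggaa
GARS1 chr7:30594834-30594863, plus strand: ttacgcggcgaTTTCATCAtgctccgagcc
IARS1 chr9:92293692-92293721, minus strand: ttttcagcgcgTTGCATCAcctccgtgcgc
MARS1 chr12:57488053-57488082, plus strand: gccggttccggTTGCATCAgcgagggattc
NARS1 chr18:57621804-57621833, minus strand: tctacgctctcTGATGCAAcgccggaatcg
TARS1 chr5:33440956-33440985, plus strand: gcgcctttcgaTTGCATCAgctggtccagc
YARS2 chr12:32756076-32756105, minus strand: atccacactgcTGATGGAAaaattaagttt
The match began 13 bases before the RefSeq start of IARS1, 4 before that of MARS1, 2 before that of CARS1 and 33 before that of GARS1. It began 2 bases after the start of TARS1 and 14 after that of NARS1, and lay farther upstream in AARS1 (187 bases) and YARS2 (197 bases). Of these 8 genes, AARS1, GARS1, IARS1, MARS1, NARS1 and TARS1 fell under sh4, and CARS1 (-0.10) and YARS2 (-0.34) did not pass. EARS2, IARS2 and WARS2, which have a promoter entry without such a match, fell as well. EPRS1, KARS1, LARS2 and NARS2 also fell and have no match shown, though some of them may lack a promoter entry. Among all 37 synthetase genes 17 fell, and among all genes tested 11.9%. Whether the motif goes with the change under sh4 was not tested. A match describes the letters alone, and binding was not measured. Of the other motifs, the E-box CACGTG was in 4 of 30 (CARS2, EARS2, IARS1 and MARS2) against 8.77% of genes, and the ETS motif CCGGAAGT was in 8 against 4.95%. ATTGG, the inverse of the CCAAT box, was in 16 against 39.7%, TCATGTG in 1 against 3.59%, and TGATGCAAT in 1 against 0.293%. TCACGTG and TGACGTCA, present in 4.49% and 2.25% of genes, were in 0 of the 30. TCACGTG contains CACGTG, and TGATGCAAT contains TGATGCAA.

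Genes that work with the synthetases were followed as lists, and the genes given per library here were picked after their values were seen. The scaffold of the multisynthetase complex consists of AIMP1, AIMP2 and EEF1E1. EEF1E1 fell under sh4 at -0.70 (SE 0.17, adjusted p 0.0169), and AIMP2 fell under sh8 at -1.22 (SE 0.21, adjusted p 0.0157). AIMP2 was at 717, 1143 and 985 in the shlacZ libraries, 622 and 822 under sh4, and 366 and 437 under sh8. Its sh8 libraries were the lowest, and the difference between the hairpins of 0.84 did not pass (adjusted p 0.0560). AIMP1 did not pass under either hairpin (-0.39 and -0.23).

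TARS3, a threonyl-tRNA synthetase gene besides TARS1 that falls outside the naming rule, was at 202, 189.6 and 178 in the shlacZ libraries, 559 and 425 under sh4, and 501 and 528 under sh8. All 4 knockdown libraries were far above the highest control, and it rose under both hairpins, at 1.36 (SE 0.17, adjusted p 5.78e-04) under sh4 and 1.43 (SE 0.17, adjusted p 0.00277) under sh8, which share their controls. The call under sh8 was lost without the second sh8 library. The other synthetase-like genes AARSD1, SEPSECS and PSTK did not pass under either hairpin. Among the proofreading enzymes that remove wrongly loaded amino acids, DTD2 was at 420.1, 530.0 and 459 in the shlacZ libraries, 395 and 435 under sh4, and 62.0 and 90.1 under sh8. It was low in the sh8 libraries alone, 83.8% under the control mean, with a log2 fold change of -2.63 (SE 0.20, adjusted p 6.05e-04) under sh8 and of -0.17 (SE 0.20, adjusted p 0.575) under sh4, and the hairpins differed by 2.46 (SE 0.22, adjusted p 8.96e-04). DTD1 fell under sh4 at -0.48 (SE 0.12, adjusted p 0.0206), and PRORSD1P, whose symbol marks a pseudogene, lay under the minimum mean.

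Mitochondria make glutaminyl-tRNA with the amidotransferase subunits QRSL1, GATB and GATC. QRSL1 fell under sh4 at -0.77 (SE 0.15, adjusted p 0.00624) and GATB at -0.47 (SE 0.15, adjusted p 0.0437), while GATC (-0.35) and MTFMT, which formylates the initiator methionyl-tRNA (-0.22), did not pass. Both genes of tRNA maturation and export fell under sh4, TRNT1, which adds the CCA end, at -0.52 (SE 0.14, adjusted p 0.0207), and XPOT, the export receptor of tRNA, at -0.63 (SE 0.13, adjusted p 0.00699). Under sh8 limma and limma-voom each called 0 of these 6 genes, and QRSL1 and GATB had an unadjusted p under 0.05.

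**Figure D5:**
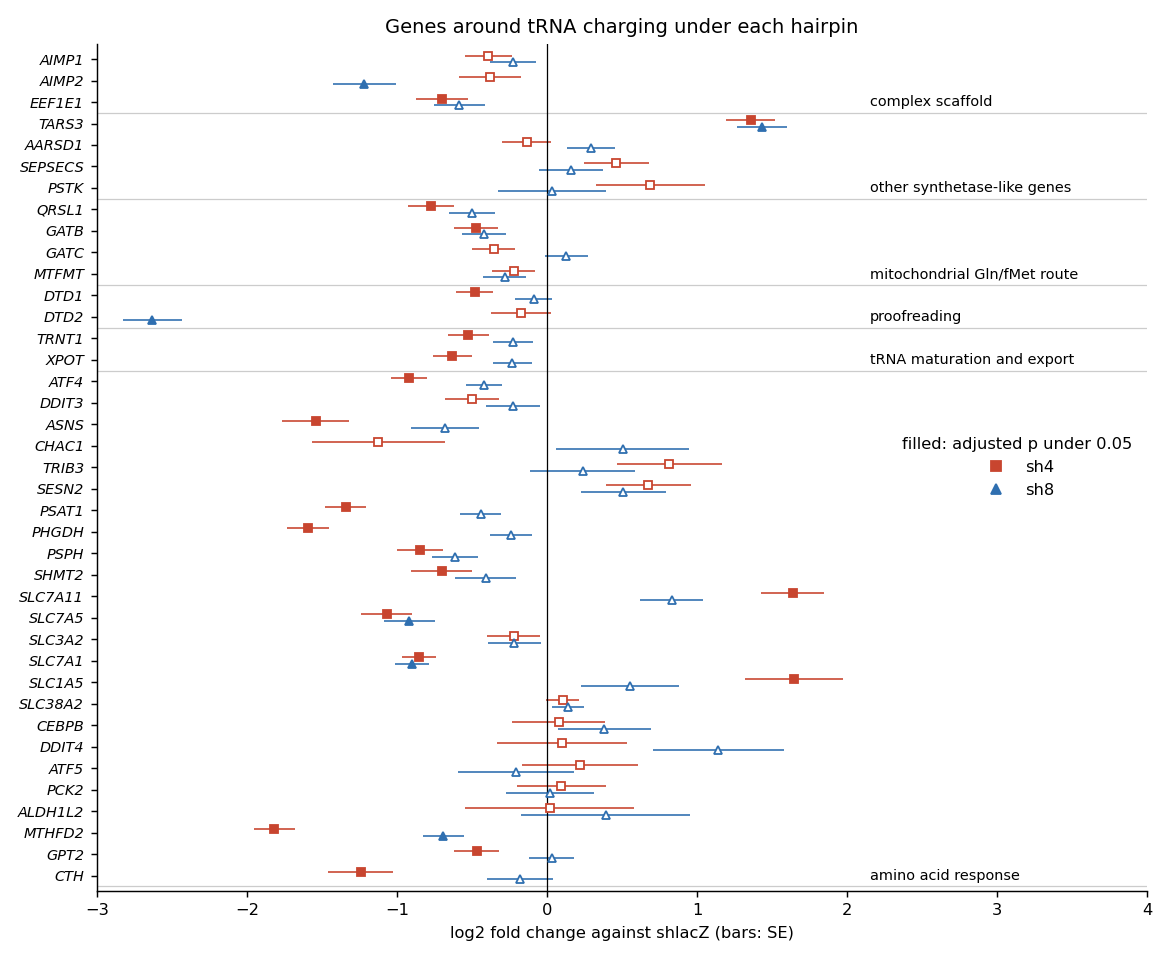
Log2 fold change against shlacZ of 39 genes around tRNA charging under sh4 (squares) and sh8 (triangles), with SE bars and filled symbols for an adjusted p under 0.05. TARS3 is to the right under both hairpins and DTD2 far to the left under sh8 alone.

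Of the 26 amino acid response genes, 24 were tested, 11 fell and 2 rose under sh4, with a median of -0.48. Among all genes tested, 11.9% fell and 10.5% rose. ATF4, the transcription factor itself, was at 4272, 4533 and 4367 in the shlacZ libraries, 2481 and 2173 under sh4, and 3025 and 3560.2 under sh8. The groups did not overlap, and its log2 fold change was -0.92 (SE 0.12, adjusted p 8.18e-04) under sh4. Among the 11 that fell were the enzymes MTHFD2 at -1.82 (adjusted p 8.00e-05), PHGDH at -1.59 (adjusted p 1.10e-04), ASNS at -1.54 (adjusted p 0.00139) and PSAT1 at -1.34 (adjusted p 2.24e-04). CTH, PSPH, SHMT2, GPT2 and the amino acid carriers SLC7A1 and SLC7A5 fell too. The cystine carrier SLC7A11 and the glutamine carrier SLC1A5 rose, at 1.64 (adjusted p 7.54e-04) and 1.65 (adjusted p 0.00638). Under sh8 MTHFD2, SLC7A1 and SLC7A5 fell, where 1.54% of all genes fell. Of the 24 genes, 9 had an unadjusted p under 0.05, as did 18.5% of all genes.

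Ribosomal protein genes served as a further reference. Of 78 cytosolic ribosomal protein genes, 29 fell under sh4 (37.2%, median -0.41), and of 75 mitochondrial ones 17 fell (22.7%, median -0.28) under the same test. The share that fell was 45.9% for the synthetase genes and 11.9% for all genes tested. Under sh8 limma and limma-voom each called 0 of them, with medians of -0.14 and -0.28 and with 4 and 16 genes at an unadjusted p under 0.05, which held for 18.5% of all genes. Whether the synthetases moved apart from these genes was not tested.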

How the data were processed

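RNA of 7 libraries of 501Mel cells was extracted with TRIzol, depleted of ribosomal RNA and prepared with a stranded kit, per the labels. Per the submitters' processing notes, cutadapt, STAR and the hg38 (GRCh38) genome were used, and the study's methods add Salmon and DESeq2. The authors deposited 1 table of gene-level normalized counts written with decimal commas. All values above 0 were whole multiples (tolerance 0.01) of 1 step per library, so reads could be recovered, which gave totals of 13337317 to 22855232. Values of log2(normalized count + 1) of genes with a mean of at least 10 were tested with limma 3.58.1 in R 4.3.3 with a variance trend and Benjamini-Hochberg adjustment over all genes tested, as 2 levels for both hairpins together and as 3 groups otherwise. A single gene was tested by exact permutation. The limma fits, not the permutation, were tested on simulated data with the same dispersion for all genes. Full values per library were given for at most 12 called synthetase genes of smallest p, the 3 largest changes per comparison, the 3 most and 3 least abundant genes per kb, and GARS1, KARS1, QARS1 and WARS1. A pair of synthetase genes is counted but not reported here by name. The members and lists were chosen with earlier results of these data known. Transcript lengths and positions came from GENCODE 44 and promoters from RefSeq GRCh38.p14. Alternatives were other pseudocounts, filters, scalings, variance models and blocks, limma-voom on the recovered reads, and leaving out each library. The 4633 genes without a symbol in the table were kept in the tests. Strand use in counting is not given in the sources used here.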

Additional observations from a re-analysis of the deposited data

Results flagged for a closer look

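In the 4 knockdown libraries, TARS1 had 1 library far from the other 3. The first sh4 library was the lowest, and its gap to the nearest library took 0.854 of the whole range. For WARS1 the second sh4 library was the highest, with a gap of 0.890 of the range. Both gaps were past Dixon's critical value for 4 samples, and 2 of 37 synthetase genes passed it. Chance alone passes it in about 1 of 20 groups when all 4 samples are of 1 kind. These libraries are 2 of sh4 and 2 of sh8, so that rate does not hold as given.

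The hairpins differed by the direct test for several genes. Among the synthetases, sh4 was lower than sh8 for NARS2 (-0.91 on the log2 scale), WARS2 (-0.83) and LARS1 (-0.52). Among the amino acid response genes, it was lower for PHGDH (-1.35), MTHFD2 (-1.12), CTH (-1.06), PSAT1 (-0.90) and ATF4 (-0.50). DTD2 was higher under sh4 than under sh8 (2.46), its sh8 libraries being far under all others.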

How the results depend on the processing

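The count of synthetase genes past the adjusted p moved with the model in places. With both hairpins averaged in the 3-group fit the pooled count was 10 (16.4% of all genes). Without a variance trend the sh4 count was 9 and that of sh4 against sh8 was 0, as against 16.2% and 3.09% of all genes. For sh4 against sh8 quantile normalization gave 6, each lower (8.58% of all genes), and a fit of the compared groups alone gave 6, of which 5 were lower and RARS2 higher (9.57%). Under limma-voom the sh4 count was 18 (23.3% of all genes). The cause of these moves was not tested. The pooled fold change of GRASLND lost its call without a variance trend, at -0.85. Of the 28 single-gene results of synthetases followed, 0 reversed under any alternative, and 5 of the 18 sh4 calls held in all 7 fits without 1 library and 9 in all 10 other alternatives. The median of the 37 genes under sh4 was -0.33 with quantile normalization and -0.28 with libraries scaled to equal totals, where the median of all genes was 0.09.

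With 1 library left out, the counts ranged from 0 to 2 for the pooled hairpins (2 without the first sh8 library, 7.72% of all genes), 5 to 21 for sh4, 0 to 4 for sh8 (4 without the first shlacZ library, 10.4% of all genes) and 0 to 11 for sh4 against sh8 (11 without the first shlacZ library, 12.9% of all genes, 1 without the first sh4 or the second sh8 library, 2 without the third shlacZ library). Where 1 library remained in a group, it was assumed to vary like the others. Over the same fits the cytosolic medians ranged from -0.43 to -0.26 (pooled), -0.62 to -0.35 (sh4), -0.30 to -0.14 (sh8) and -0.44 to -0.11 (sh4 against sh8). The mitochondrial medians ranged from -0.31 to -0.19, -0.38 to -0.14, -0.23 to -0.13 and -0.0419 to 0 in the same order. The GRASLND fold change ranged from -0.99 to -0.73 (pooled), -1.23 to -0.82 (sh4) and -0.92 to -0.44 (sh8).

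Whether replicate numbers pair the libraries could not be decided. The deviations of same-numbered libraries had correlations from -0.078 to 0.337, with 3 of 6 under 0.1. The 2 pairs between sh4 and sh8 have the same value by construction, since the 2 deviations within a hairpin mirror each other. The first library was the lowest of its group for 31 (shlacZ), 32 (sh4) and 21 (sh8) of the 37 synthetase genes. The replicate number was also fitted as a block, which leaves the third shlacZ library alone in its block. The counts were then 0 pooled (0.272% of all genes), 15 for sh4 (21.9%), 0 for sh8 (3.72%) and 5 for sh4 against sh8 (9.51%). The pooled GRASLND fold change was -0.90 in that fit and lost its call.

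With 2 libraries per hairpin and changes mostly under 1 on the log2 scale, a p over the threshold does not show that a gene did not differ. The background of genes at least as abundant as the least abundant synthetase, and the following of TARS3 and DTD2 through the alternatives, were added after seeing the data.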
